A study of Mus musculus with 15 samples.

Results

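ISG15 is a small ubiquitin-like protein that interferons induce and that cells attach to other proteins, a process called ISGylation. Attachment runs through the activating enzyme UBA7, the conjugating enzyme UBE2L6 and a ligase, of which HERC6 is the main one in mice and TRIM25 another, and USP18 removes ISG15 again. A neighbouring interferon-inducible system consists of the ubiquitin ligase DTX3L, its partner PARP9, which binds ADP-ribose, and the mono-ADP-ribosyltransferase PARP14. The 9 genes *Isg15*, *Uba7*, *Ube2l6*, *Herc6*, *Trim25*, *Usp18*, *Dtx3l*, *Parp9* and *Parp14* were chosen by their symbols, and each had exactly 1 row among the 55487 genes of the count table.

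Whole skin of C57BL/6 mice at 3 weeks of age was measured by 3′ mRNA sequencing, in which each transcript is read near its poly(A) end and counts need no scaling to transcript length. WT denotes skin of littermates that carry loxP-flanked *Otulin* alleles without Cre. OTULIN E-KO denotes *Otulin* fl/fl *K14-Cre* mice, which carry the same floxed alleles and lack the deubiquitinase OTULIN in cells in which the keratin 14 promoter is or was active, chiefly keratinocytes, whereas the dermal, muscle and immune cells of the sample keep it. The 3 groups were WT, unaffected (non-lesional) OTULIN E-KO skin and affected (lesional) OTULIN E-KO skin, with 5 libraries each. The text of the study does not state whether lesional and non-lesional pieces came from the same mice.

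Library totals lay between 1962604 and 2567138 counts, with medians of 2371559 in WT, 2347811 in non-lesional and 2165875 in lesional libraries. *Otulin*, the deleted gene, ranged from 12.4 to 28.5 normalised counts per 1000000 (CPM) in WT, from 21.5 to 31.1 in non-lesional and from 19.2 to 27.5 in lesional libraries, so its level in whole skin did not tell E-KO from WT libraries, and group membership rests on the labels alone. The keratinocyte markers, 5 of 5 genes, were present with summed levels of 5951 to 10355 CPM in WT, 7436 to 10345 in non-lesional and 5756 to 14448 in lesional libraries. Lesional replicates 2 and 11 stood apart from the other 3 lesional libraries. Their summed levels of 5 genes of stressed epidermis (*Krt6a*, *Krt6b*, *Krt16*, *Sprr1b*, *Sprr2d*) were 10188 and 28920 CPM, against 244 to 425 in lesional replicates 5, 8 and 14 and 279 to 1323 in WT. Lesional replicate 11 also had the lowest summed levels of muscle (3422 CPM) and fibroblast genes (16537 CPM) of its group. Beside lesional values, values without replicate 11 or without both are therefore given.

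*Isg15* (ENSMUSG00000035692) occupies positions 156199424 to 156200818 of chromosome 4 (GRCm38, the build of every locus given here), minus strand, and has 2 exons. It is shown with its promoter because it was the only member whose promoter window held the interferon-stimulated response element core, the site through which type I interferons act. RefSeq (GRCm38.p6) promoter windows, from 250 bases before to 50 bases after the start, were at hand for 6 of the 9 genes, namely *Isg15*, *Uba7*, *Ube2l6*, *Herc6*, *Trim25* and *Dtx3l*, but not for *Usp18*, *Parp9* and *Parp14*. The core was searched as GAAANNGAAA on both strands. It occurred at 3 overlapping positions in the *Isg15* window and in none of the other 5 windows, against 3.44% of 32851 mouse promoters. The STAT dimer site TTCNNNGAA, which 8.3% of all promoters hold, was in none of the 6 windows. The 120 bases upstream of *Isg15*, chr4:156200819-156200938 on the minus strand, are printed 5′ to 3′ with the 3 overlapping matches in capitals.
Isg15 promoter: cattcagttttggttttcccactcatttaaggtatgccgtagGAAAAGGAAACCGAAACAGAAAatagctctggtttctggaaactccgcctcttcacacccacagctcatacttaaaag
The first match began 78 bases before the annotated start and the last ended 57 bases before it. A match to these letters describes the sequence only.

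The modifier itself was hardly counted. *Isg15* had 1, 0, 0, 0 and 1 counts in WT replicates 1, 4, 7, 10 and 13. It had 4, 0, 1, 7 and 3 counts in non-lesional replicates 3, 6, 9, 12 and 15, and 9, 0, 3, 20 and 2 counts in lesional replicates 2, 5, 8, 11 and 14. Nearly all counts of the gene came from OTULIN E-KO libraries, but non-lesional replicate 6 and lesional replicate 5 had none, like 3 WT libraries. The summed counts were 2 in WT, 15 in non-lesional and 34 in lesional libraries. Scaled by library size, the non-lesional sum was 7.70 times that of WT (exact 95% interval 1.79 to 69.4) and the lesional sum 19.3 times (4.94 to 165), where the intervals cover counting error only and not the spread between libraries. Replicate 11 held 20 of the 34 lesional counts, and without it the lesional sum was 9.74 times that of WT (2.24 to 88.3), and without replicates 2 and 11 it was 4.66 times (0.763 to 48.9). *Isg15* did not pass the filter on low counts, edgeR's filterByExpr, which keeps genes with about 10 counts or more in at least 5 libraries of a pair of groups. In edgeR's quasi-likelihood test without that filter its log2 fold change was 2.61 in non-lesional skin (unadjusted p = 0.0138, adjusted p = 0.747) and 3.92 in lesional skin (unadjusted p = 4.05e-04, adjusted p = 0.721). The lesional value without replicate 11 was 2.91 (edgeR, unadjusted p = 0.00792), and without replicates 2 and 11 it was 1.89 (edgeR, unadjusted p = 0.143).

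The ends of the *Isg15* and *Ube2l6* transcripts share stretches of sequence with other genes. The authors kept only reads of high mapping quality, and the last 300 bases of the annotated *Isg15* transcript contain stretches that match transcripts of 42 other genes at 90% identity or more over at least 35 bases. For the annotated *Ube2l6* transcripts 20 other genes matched in this way, and for the other 7 members between 0 and 3. Genes of ubiquitin and its relatives show the range of the table: *Nedd8*, a ubiquitin-like modifier, had 275 to 391 counts a library, whereas *Rps27a*, which encodes ubiquitin fused to a ribosomal protein, had 0 to 2. The part of shared sequence in the low counts of *Isg15* and *Ube2l6* was not tested.

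Of the enzymes that attach ISG15, *Uba7* (ENSMUSG00000032596, chromosome 9, 107975505 to 107984060, plus strand) encodes the dedicated activating enzyme. It had 8.64, 13.7, 11.3, 10.2 and 14.4 CPM in WT replicates 1, 4, 7, 10 and 13. The non-lesional libraries (replicates 3, 6, 9, 12 and 15, an order kept below) had 18.0, 7.73, 14.99, 21.1 and 17.2 CPM. The lesional libraries (replicates 2, 5, 8, 11 and 14) had 17.4, 12.97, 18.6, 33.4 and 15.7 CPM. In each OTULIN E-KO group 4 of 5 libraries lay above every WT library, and non-lesional replicate 6 and lesional replicate 5 lay within or below the WT range.

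*Ube2l6* (ENSMUSG00000027078, chromosome 2, 84798828 to 84810335, plus strand), the conjugating enzyme, was as sparse as *Isg15*, with summed counts of 12 in WT, 13 in non-lesional and 13 in lesional libraries. Its highest library was WT replicate 4 with 8 counts, and the other 14 libraries had 0 to 5. The ratio of the summed counts was 1.11 between non-lesional and WT libraries (exact 95% interval 0.468 to 2.67) and 1.23 between lesional and WT libraries (0.516 to 2.94). Lesional replicates 2 and 11 held 10 of the 13 lesional counts, and the lesional ratio was 0.928 (0.329 to 2.47) without replicate 11 and 0.4658 (0.0844 to 1.73) without both. The ratios of the other attaching enzymes *Uba7*, *Herc6* and *Trim25*, given below as log2 fold changes, lie within the intervals over all libraries, so a difference of that size was not detectable for *Ube2l6* at this depth.

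*Herc6* (ENSMUSG00000029798, chromosome 6, 57581000 to 57664632, plus strand), the main ISG15 ligase of mice, had 12.2, 9.27, 12.7, 9.80 and 16.7 CPM in WT libraries. It had 20.7, 17.6, 14.99, 26.3 and 13.7 CPM in non-lesional libraries, of which 3 of 5 exceeded every WT library. In lesional libraries it had 31.2, 14.5, 11.3, 58.2 and 17.2 CPM, of which 3 of 5 did so, the third by a narrow margin. A transcript annotated as the separate gene *Gm45193* shares 1269 exonic bases with *Herc6* on the same strand. It had 177 counts over all libraries, and reads in the shared bases were counted for both genes.

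*Trim25* (ENSMUSG00000000275, chromosome 11, 88999376 to 89020293, plus strand) encodes a ligase for ISG15 that also adds ubiquitin chains to the RNA sensor RIG-I. It had 36.9, 21.6, 28.5, 29.4 and 23.9 CPM in WT libraries and 45.9, 18.9, 33.3, 35.7 and 37.5 CPM in non-lesional libraries. In lesional libraries it had 75.2, 18.7, 26.7, 95.7 and 42.2 CPM. The groups overlapped, and the lowest values of the 15 libraries were those of lesional replicate 5 and non-lesional replicate 6.

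*Usp18* (ENSMUSG00000030107, chromosome 6, 121245906 to 121270917, plus strand) encodes the protease that removes ISG15 and also dampens signalling at the type I interferon receptor. It had 3.53, 4.86, 3.62, 1.70 and 3.80 CPM in WT libraries. The non-lesional libraries had 11.7, 3.01, 7.50, 14.2 and 13.7 CPM, and the lesional libraries 18.8, 3.63, 7.27, 43.6 and 8.34 CPM. In each OTULIN E-KO group 4 of 5 libraries exceeded the highest WT library, again with the exceptions of non-lesional replicate 6 and lesional replicate 5. Group means were 3.50 ± 1.14 CPM (SD, n = 5) in WT, 10.02 ± 4.72 in non-lesional and 16.3 ± 16.2 in lesional skin.

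*Parp14*, *Dtx3l* and *Parp9* are neighbours on chromosome 16 within 139732 bases. *Dtx3l* (ENSMUSG00000049502, 35926511 to 35939151, minus strand) and *Parp9* (ENSMUSG00000022906, 35938470 to 35972605, plus strand) are transcribed away from each other from starts 681 bases apart, and they share 458 exonic bases at their 5′ ends. The last 500 exonic bases of each, where the 3′ reads fall, overlap no exon of the other. *Parp14* (ENSMUSG00000034422, 35832874 to 35871544, minus strand) lies 54966 bases beyond the end of *Dtx3l*.

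*Dtx3l*, the ubiquitin ligase of the pair, had 22.4, 19.0, 15.4, 15.8 and 16.3 CPM in WT libraries. It had 30.2, 27.5, 22.9, 37.3 and 24.3 CPM in non-lesional libraries, each above every WT library, although the lowest exceeded the highest WT library only by the step from 22.4 to 22.9. In lesional libraries it had 40.4, 20.2, 24.2, 87.1 and 24.04 CPM, of which replicate 5 fell within the WT range.

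*Parp9*, which binds DTX3L, had 25.9, 16.8, 27.2, 19.2 and 20.1 CPM in WT libraries and 32.4, 18.9, 14.6, 40.9 and 25.6 CPM in non-lesional libraries. In lesional libraries it had 54.6, 19.2, 23.4, 126 and 25.0 CPM. Only 2 libraries of each OTULIN E-KO group lay above the WT range, non-lesional replicates 3 and 12 and lesional replicates 2 and 11. The partner genes thus did not show the same ordering of libraries, as *Dtx3l* separated the non-lesional from the WT libraries and *Parp9* did not. Whether their fold changes differ was not tested.

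*Parp14* had 35.3, 20.7, 29.0, 32.8 and 36.1 CPM in WT libraries. The non-lesional libraries had 45.9, 38.7, 41.2, 43.8 and 53.0 CPM, again each above every WT library. The lesional libraries had 84.8, 35.8, 48.1, 170 and 53.0 CPM, and replicate 5 alone of them lay within the WT range.

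**Figure D1:**
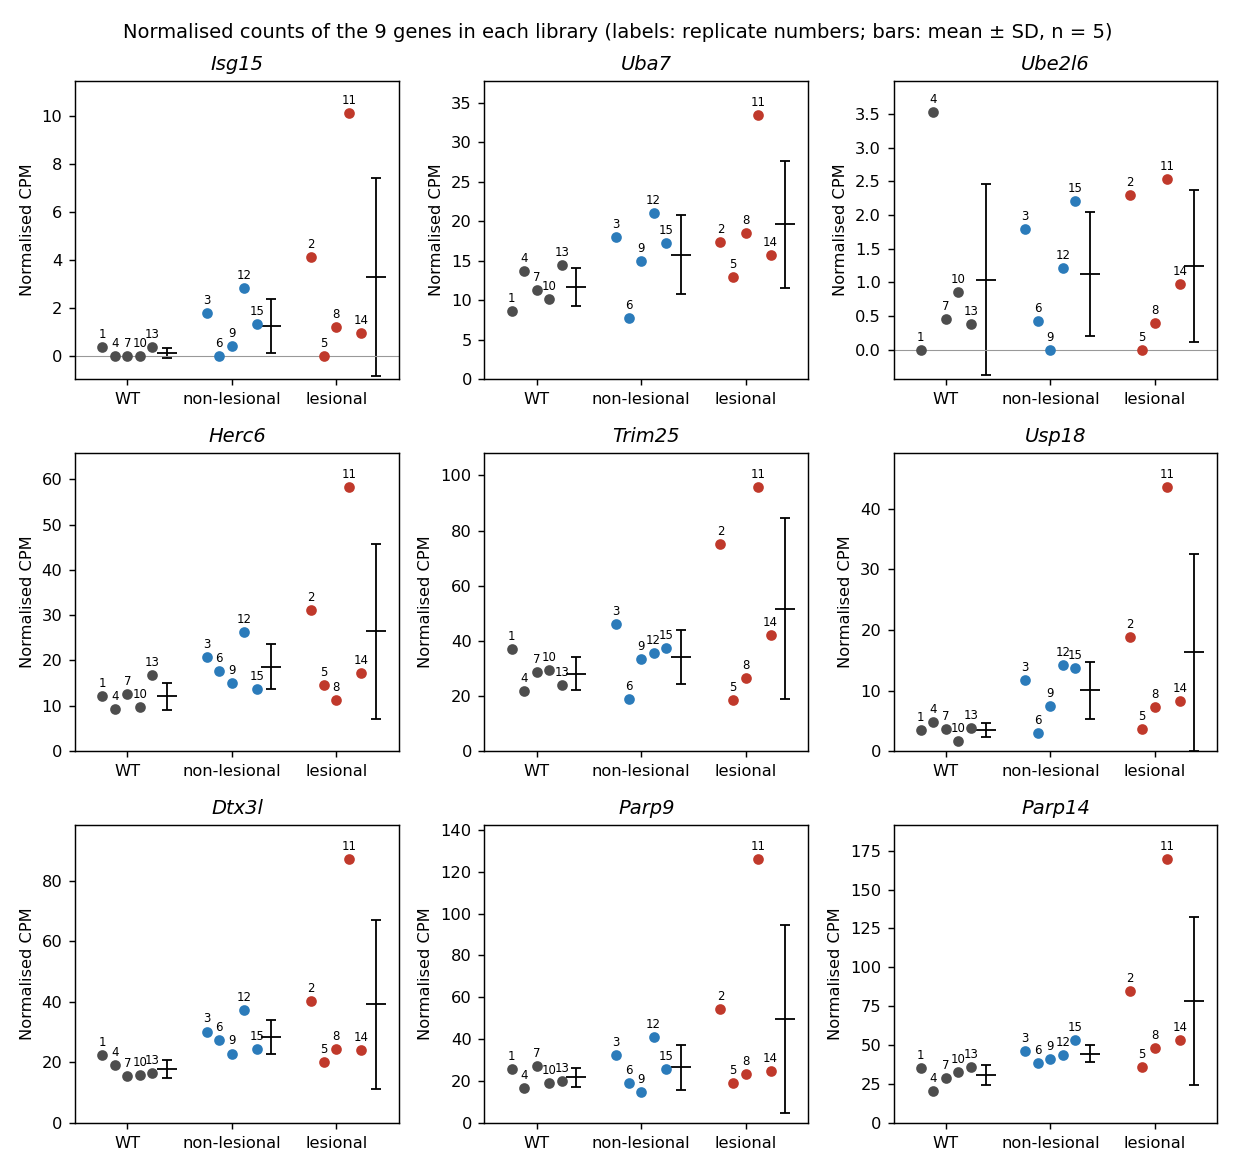
Normalised counts (CPM) of the 9 genes (vertical axes, linear) in the 15 libraries, grouped as WT, non-lesional and lesional, with the replicate number above each point and a bar for the mean ± SD of 5 libraries. Lesional replicate 11 was the highest lesional library in each panel, at 170 CPM for *Parp14* and 43.6 CPM for *Usp18*, and *Isg15* and *Ube2l6* lay close to 0 in most libraries.

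The comparison of non-lesional with WT skin asks how OTULIN loss in keratinocytes relates to these genes in skin without a visible lesion. Of the 9 genes 7 passed the filter, and the 7 were higher in non-lesional skin, with log2 fold changes between 0.28 and 1.503 and a median of 0.53, beside a median of -0.0027 over all 13021 genes tested. *Usp18* had the largest, 1.503 (standard error 0.38), followed by 0.68 (0.18) for *Dtx3l*, 0.62 (0.22) for *Herc6* and 0.53 (0.16) for *Parp14*. *Usp18*, with 4 to 11 counts in WT libraries, met the filter in both comparisons with WT mainly through OTULIN E-KO libraries, where it was high. Its place among the genes tested, and in the counts below, was thus not independent of that level. The values of *Uba7*, *Trim25* and *Parp9* were 0.44 (0.25), 0.28 (0.20) and 0.28 (0.24). These are levels over whole skin, in which more cells with a transcript and more transcript per cell cannot be told apart.

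None of these differences passed the threshold of an adjusted p under 0.05 in edgeR's quasi-likelihood test, which called 0% of all genes in this comparison. The adjusted p was 0.9998 for each of the 7, and 411 of 13021 genes had an unadjusted p under 0.05. Before adjustment 4 of the 7 were higher with p under 0.05 in edgeR's quasi-likelihood test, namely *Usp18* (unadjusted p = 8.49e-04), *Dtx3l* (unadjusted p = 0.00127), *Parp14* (unadjusted p = 0.00349) and *Herc6* (unadjusted p = 0.0128), where 1.85% of all genes tested were higher in this way. The groups did not overlap for 2 of the 7, *Dtx3l* and *Parp14*, against 0.392% of all genes. DESeq2's Wald test, which took in the 9 genes, counted 0 by adjusted p and 5 by unadjusted p, beside 0.912% of the 27202 genes it tested higher by unadjusted p. That set holds genes with few counts, which edgeR's filter removed, so its share is not comparable with the 1.85% above. Markers of erythrocytes were also higher in this comparison, 5 of 5 with a median log2 fold change of 0.71, of which 1 (*Hbb-bs*) had an unadjusted p under 0.05. Their summed level was 1458 to 2442 CPM in WT and 1684 to 6033 in non-lesional libraries, with the highest in replicate 12 and the lowest in replicate 3. Both of these replicates were high in the members, and the part of blood in the levels of the members was not tested. Of the hair follicle markers 1 of 8 was tested, *Tchh*, which was lower (-3.04, edgeR, unadjusted p = 0.0387). The summed level of these markers was 1292 CPM in WT replicate 1, 25.4 to 153 in the rest of that group and 31.8 to 58.3 in non-lesional skin. Without WT replicate 1 the median of the members was 0.58, with 4 of 7 under 0.05 by unadjusted p, a count whose share over all genes in that fit is not given here.

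*Usp18* was the member whose call turned on a setting. Without the filter on low counts its adjusted p was 0.0241 in edgeR's quasi-likelihood test (log2 fold change 1.501), and over the other 17 alternatives it ranged from 0.0879 to nearly 1. The lowest of these was obtained without non-lesional replicate 6, when the log2 fold change was 1.73. With all 15 libraries in 1 fit, in which the widely spread lesional libraries share the estimate of the variance, *Usp18* alone stayed under 0.05 in edgeR (unadjusted p = 0.0262). For *Parp9* the value depended on non-lesional replicate 12, without which it was 0.06 instead of 0.28.

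The comparison of lesional with WT skin asks the same of affected skin, with the same WT libraries, so the results of the comparisons are not independent. The 7 genes were again higher, with a median log2 fold change of 1.14 and a range of 0.75 to 2.20, beside -0.0034 over all 12918 genes. *Usp18* had 2.20 (standard error 0.61), *Parp14* 1.34 (0.38), *Parp9* 1.18 (0.49), *Dtx3l* 1.14 (0.37), *Herc6* 1.12 (0.41), *Trim25* 0.88 (0.39) and *Uba7* 0.75 (0.27). In edgeR's quasi-likelihood test the adjusted p was 0.926 for each, and 0% of all genes passed the threshold. The unadjusted p was under 0.05 for the 7, from 0.00371 for *Usp18* to 0.0445 for *Trim25*, against 3.24% of all genes tested. None of the 7 separated the groups without overlap, where 0.441% of all genes did. Lesional replicate 5 did not exceed every WT library for any of them, and lesional replicates 8 and 14 did not for *Parp9*. DESeq2's Wald test gave 0 members by adjusted p, with 14 genes called in all, and 8 of 9 by unadjusted p, beside 2.52% of the 26979 genes it tested without that filter.

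The size of these values depended on lesional replicate 11. Without lesional replicate 11 the median was 0.61, and *Usp18*, *Dtx3l* and *Parp14* were the 3 members with an unadjusted p under 0.05, at 1.44, 0.62 and 0.85, beside 1.49% of all genes. Without replicates 2 and 11 the median was 0.36 and *Parp14* alone remained (0.56, unadjusted p = 0.0160 in edgeR's quasi-likelihood test), beside 1.42% of all genes. *Usp18* was then 0.87, *Uba7* 0.43, *Dtx3l* 0.36 and *Herc6* 0.22, whereas *Trim25* and *Parp9* were at 0.05 and 0.04.

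**Figure D2:**
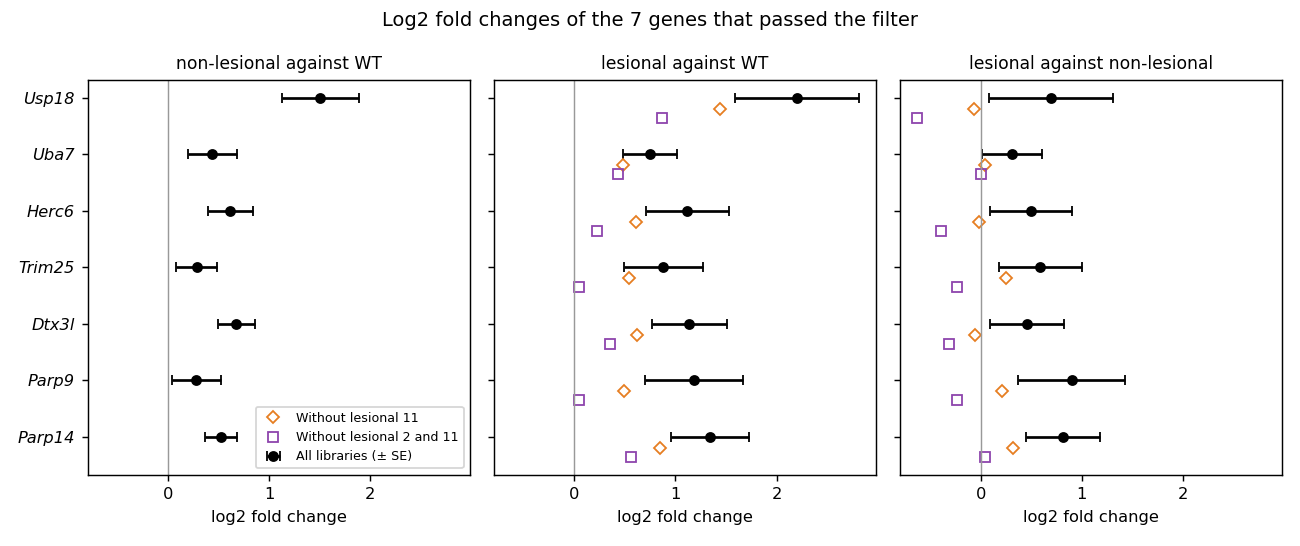
Log2 fold changes (horizontal axes) of the 7 genes that passed the filter in the 3 comparisons, with filled points and bars for the value ± standard error over all libraries, diamonds for the value without lesional replicate 11 and squares for the value without lesional replicates 2 and 11. Against WT the 7 genes lay above 0 in each of these fits, from 0.04 to 2.20, and between lesional and non-lesional skin 5 of 7 squares lay below 0.

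Between lesional and non-lesional OTULIN E-KO skin the 7 genes were higher in lesional skin, with a median log2 fold change of 0.59 (range 0.31 to 0.90) beside 0.0031 over all 12864 genes. *Parp9* had 0.90 (standard error 0.53), *Parp14* 0.81 (0.36), *Usp18* 0.69 (0.61), *Trim25* 0.59 (0.41), *Herc6* 0.50 (0.41), *Dtx3l* 0.46 (0.37) and *Uba7* 0.31 (0.29). In edgeR's quasi-likelihood test 0 members and 0% of all genes had an adjusted p under 0.05, and the adjusted p of the members was 0.973. Only *Parp14* stayed under 0.05 before adjustment (edgeR, unadjusted p = 0.0468), against 2.89% of all genes. DESeq2's Wald test likewise gave 0 of 9 by adjusted and 1 by unadjusted p, beside 2.15% of the 27308 genes it tested without the filter. No member separated these groups, where 0.295% of all genes did. Without lesional replicate 11 the median was 0.04 and no member met the measure, with *Parp14* at 0.32 (edgeR, unadjusted p = 0.141), *Trim25* at 0.25, *Parp9* at 0.21 and *Uba7* at 0.04, while *Usp18*, *Herc6* and *Dtx3l* were at -0.064, -0.012 and -0.060. Without replicates 2 and 11 the median was -0.23, with *Usp18* at -0.63, *Herc6* at -0.39, *Dtx3l* at -0.31, *Trim25* at -0.23, *Parp9* at -0.23, *Parp14* at 0.04 and *Uba7* at 0.0025. The direction of this comparison thus rested on these 2 libraries, in fits that kept non-lesional replicates 3 and 12, the highest of their group in the mean over the 9 genes.

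The libraries of each OTULIN E-KO group differed in their level over the 9 genes, and some also differed from gene to gene. The mean over the 9 genes of the log2 ratio to the WT mean (CPM + 1) was used to order the libraries. It ran from -0.15 to 0.08 in WT, a spread of 0.09 (SD, n = 5). In non-lesional libraries it was 0.83, -0.037, 0.18, 0.96 and 0.70 (mean 0.53 ± 0.43), with replicates 3, 12 and 15 high and replicate 6 at the WT level. In lesional libraries it was 1.39, -0.084, 0.37, 2.25 and 0.56 (mean 0.90 ± 0.93). The genes of a library did not all move together: in non-lesional replicate 6 the ratio was 0.62 for *Dtx3l* and 0.53 for *Herc6* but -0.52 for *Trim25* and -0.51 for *Uba7*, and in non-lesional replicate 9 it was 0.96 for *Usp18* and -0.53 for *Parp9*.

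Lesional replicate 11 had the highest level of all 15 libraries for 8 of the 9 genes, the exception being *Ube2l6*. Lesional replicate 2 exceeded every WT library for 8 genes. At the other end, lesional replicate 5 had the lowest level of its group for 8 genes and exceeded every WT library for 0. Non-lesional replicate 6 exceeded every WT library for 3 genes, which were *Herc6*, *Dtx3l* and *Parp14*. The lesional label was therefore not matched library by library with the mean level of these genes, as non-lesional replicates 3, 12 and 15 lay above lesional replicates 5, 8 and 14. The amount of lesion in each library is not known. The stressed epidermis sums of lesional replicates 5, 8 and 14, 244 to 425 CPM, did not exceed the WT range of 279 to 1323. For its qRT-PCR samples the paper describes difficulty in keeping the amount of lesional skin equal, as the lesions are focal.

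**Figure D3:**
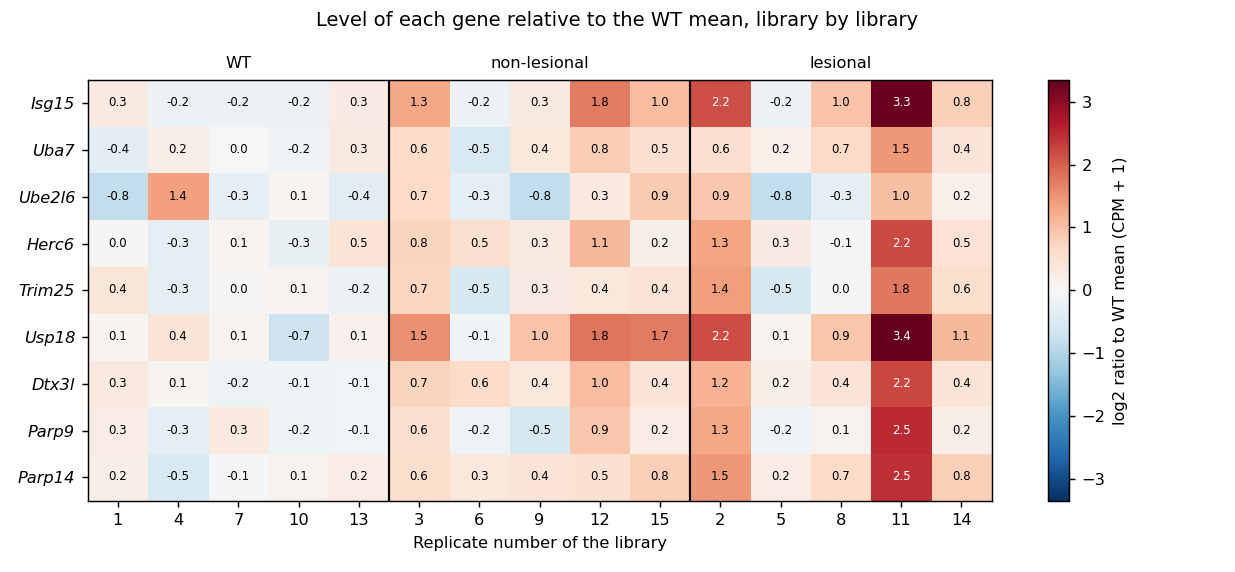
Log2 ratio of each library to the WT mean (CPM + 1) for the 9 genes (rows) in 15 libraries (columns, by group and replicate number), with red above and blue below the WT mean. The column of lesional replicate 11 is red throughout, with a mean of 2.25, and the columns of lesional replicate 5 and non-lesional replicate 6 have means near the WT level, -0.084 and -0.037. Single genes in these 2 columns run from -0.81 (*Ube2l6*) to 0.27 (*Herc6*) and from -0.52 (*Trim25*) to 0.62 (*Dtx3l*).

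Markers of stressed epidermis were high in the 2 libraries with the highest levels of the 9 genes, lesional replicates 2 and 11. In non-lesional replicates 3, 12 and 15, with mean ratios of 0.70 to 0.96, that sum was 1004, 325 and 382 CPM, within the WT range of 279 to 1323. Of 8 neutrophil genes *Ly6g* and *Csf3r*, which define the cell, were at 0 in each of the 15 libraries. *Cxcr2*, a chemokine receptor of these cells, had a mean of 2.33 ± 2.76 CPM (SD, n = 5) in lesional, 0.081 in non-lesional and 0 in WT libraries, with 3 of 5 lesional libraries above every WT library. *Retnlg* had 2.87 ± 4.92 CPM (SD, n = 5) in lesional, 0.684 in non-lesional and 0.591 in WT libraries, with 1 lesional library above every WT library, and *Mmp8* had 0.598, 0.432 and 0.495. The summed level of this list, which contains the keratinocyte-inducible *S100a8* and *S100a9*, was 3024 CPM in lesional replicate 2 and 5187 in replicate 11, against 4.04 to 10.8 in the other lesional libraries. It was 222 CPM in non-lesional replicate 3, 21.2 in replicate 15 and 3.44 to 7.08 in the other non-lesional libraries, against 1.70 to 7.21 in WT libraries. Macrophage genes (8 of 8 detected) summed to 320 to 686 CPM in WT, 410 to 540 in non-lesional and 422 to 621 in lesional libraries, and T cell genes to 30.2 to 43.9, 35.6 to 46.4 and 40.2 to 62.3 CPM. These sums overlapped between the groups, but single genes of the lists were higher in lesional than in WT skin by unadjusted p in edgeR, 2 of 8 macrophage genes and 1 of 2 tested T cell genes, beside 3.24% of all genes. The median of the macrophage list was 0.22, with 5 of 8 higher and *Lyz2* (-0.17), *Adgre1* (-0.10) and *Csf1r* (-0.049) lower in value, and the T cell gene *Cd3e* was at -0.31. *Aif1*, a macrophage gene, was at a log2 fold change of 1.19 (edgeR, unadjusted p = 0.00113), with 5 of 5 lesional libraries above every WT library, and at 0.96 without lesional replicate 11 and 0.83 without replicates 2 and 11. In non-lesional skin *Aif1* was at 0.58 (edgeR, unadjusted p = 0.0633), with 4 of 5 libraries above every WT library. *C1qa*, a complement gene of macrophages, was at 0.57 in lesional skin and the T cell receptor gene *Trbc2* at 0.55, and without lesional replicate 11 these were 0.41 and 0.34 and no longer met the measure. Between lesional and non-lesional skin *C1qa* (0.48) and *C1qb* (0.33) met it, and neither did without lesional replicate 11. *Krt1* (0.70), *Krt6a* (3.47), *Krt16* (4.68) and the hair follicle gene *Tchh* (1.05) were also higher there by this measure, beside 2.89% of all genes. The adipocyte gene *Fabp4* (-0.56) was lower, beside 1.33%. Without lesional replicate 11 no keratinocyte, stressed epidermis or hair follicle gene was higher by it. Of 5 keratinocyte genes *Krt14* (1.36) and *Krt1* (0.68) met the measure in lesional against WT skin, and at 0.66 and 0.29 without lesional replicate 11 they did not. Of 5 adipocyte genes *Fabp4* was lower (-0.62, edgeR, unadjusted p = 0.0219), beside 1.56% of all genes, also without lesional replicate 11 (-0.55, edgeR, unadjusted p = 0.0389) but not without both (-0.49, edgeR, unadjusted p = 0.0929). The part of these cells and states in the levels of the 9 genes was not tested.

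**Figure D4:**
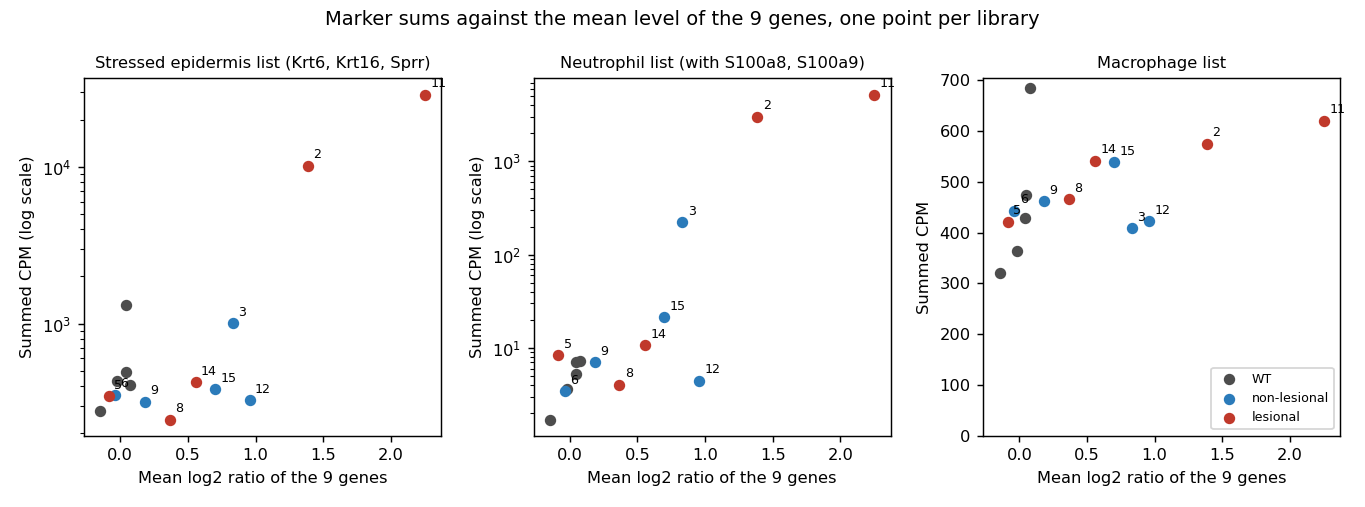
Summed CPM of the markers of stressed epidermis, of neutrophils (both log scale) and of macrophages (linear scale) on the vertical axes against the mean log2 ratio of the 9 genes on the horizontal axes, with 1 point per library and replicate numbers on the OTULIN E-KO libraries. Lesional replicates 2 and 11 stand apart in the first 2 panels, at 10188 and 28920 CPM of stressed epidermis, whereas non-lesional replicate 12 is at 325 CPM with a mean ratio of 0.96.

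Of 13461 genes compared by log2 CPM over the 15 libraries, interferon-induced genes were among those that followed the mean standardised level of the 9 members most closely. That mean includes the sparsely counted *Isg15* and *Ube2l6* with the same weight as the others. They included the membrane antiviral gene *Ifitm3* (Pearson's r = 0.97, Spearman's rho = 0.90), the chaperone *Rtp4* (0.97 and 0.86), the oligoadenylate synthetase-like *Oasl2* (0.97 and 0.81), the peptide transporter *Tap1* (0.96 and 0.86) and *Irf9* (0.95 and 0.88). Without lesional replicates 2 and 11, the libraries farthest from the median, r over 13 libraries was 0.90, 0.91, 0.89, 0.82 and 0.91 in the same order. Of the 7 members that passed the filter *Usp18* was closest to the mean (0.96 and 0.96). These coefficients describe 15 libraries that share groups and outlying samples, and each member is itself part of the mean.

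The genes around the conjugation system were counted in lists of related genes. The interferon transcription factors *Irf7*, *Irf9* and *Stat2* were higher in non-lesional than in WT skin by the unadjusted measure of edgeR used above (p under 0.05), with *Irf7* at a log2 fold change of 1.29 (standard error 0.36), *Irf9* (0.78, 0.18) and *Stat2* (0.66, 0.24), where 1.85% of all genes met it. In lesional skin these 3 met the measure, at 2.37 for *Irf7*, 1.32 for *Stat2* and 1.21 for *Irf9*, beside 3.24% of all genes. They still did so without lesional replicate 11, at 1.45, 0.85 and 0.91, and without replicates 2 and 11 *Stat2* (0.57) and *Irf9* (0.52) did and *Irf7* (0.76) did not. *Irf1*, the factor most tied to interferon gamma, was at -0.062 in non-lesional and 0.40 in lesional skin, where it was -0.012 without replicate 11 and -0.31 without replicates 2 and 11. None of these had an adjusted p under 0.05, and between lesional and non-lesional skin 0 of these had an unadjusted p under 0.05.

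The RIG-I branch, which TRIM25 and ISG15 act on, gave 1 of 6 tested genes in non-lesional skin, *Ifih1*, which encodes the RNA sensor MDA5 (0.77, standard error 0.23), and 2 of 6 in lesional skin, *Ifih1* (1.52, 0.48) and *Ddx58*, which encodes RIG-I (1.08, 0.36), beside 1.85% and 3.24% of all genes. Without lesional replicate 11 these were 0.98 and 0.77 and met the measure, and without replicates 2 and 11 they were 0.34 and 0.29 and did not. Between lesional and non-lesional skin it was 0 of 7, beside 2.89% of all genes. Of 10 interferon genes none passed the filter. *Ifnk*, the keratinocyte interferon, had 23 counts over the 15 libraries, *Ifng* had 1, and the other 8 had 0 in each library, where 3 counts correspond to between 1.14 and 1.56 CPM.

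Relatives of the members were counted by the same measure. Of 14 other ADP-ribosyltransferases only *Parp12*, itself interferon-inducible, was higher with an unadjusted p under 0.05 in non-lesional (0.78, standard error 0.26) and in lesional skin (1.23, 0.46), beside 1.85% and 3.24% of all genes, and the list medians were -0.047 and 0.15. Without lesional replicate 11 the value of *Parp12* in lesional skin was 0.71 (edgeR's quasi-likelihood test, unadjusted p = 0.0619), and without replicates 2 and 11 it was 0.14 (edgeR, unadjusted p = 0.643). Between lesional and non-lesional skin 3 of the 14 met this measure, *Parp8* (0.79), *Tiparp* (0.91) and *Tnks2* (0.25), where 2.89% of all genes did. Only *Tnks2* (0.25) still did without lesional replicate 11, with *Parp8* at 0.60 and *Tiparp* at 0.36, and without replicates 2 and 11 none was higher by this measure and *Zc3hav1* (-0.41) was lower, as *Parp4* (-0.49) was against WT. The 6 ADP-ribose hydrolases gave 0 in each comparison, as did 3 tested Deltex ligases related to DTX3L. *Adprh*, the most abundant hydrolase, was at -0.053 and 0.22 against WT, and *Dtx3* at -0.12 and -0.21.

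The 16 activating and conjugating enzymes of other ubiquitin-like proteins had list medians of -0.013 in non-lesional and 0.071 in lesional skin, with 0 of 16 at an unadjusted p under 0.05 in each. *Uba1*, the activating enzyme of ubiquitin, was at -0.016 and 0.27, beside 0.44 and 0.75 for *Uba7*. Between lesional and non-lesional skin *Uba1* (0.29) and *Ube2f* (0.42) met the unadjusted measure, 2 of 16 beside the 2.89% of all genes. When lesional replicate 11 was left out, *Uba1* (0.20) no longer did and *Ube2f* (0.44) did, and without replicates 2 and 11 neither did (0.14 and 0.36). Of 4 other HERC ligases *Herc4* was lower in non-lesional skin (-0.26, standard error 0.12, unadjusted p = 0.0351 in edgeR's quasi-likelihood test), where *Herc6* was at 0.62 and 1.31% of all genes were lower by this measure. In lesional against WT skin *Herc4* was at 0.11 over all libraries and was lower without lesional replicates 2 and 11 (-0.43, edgeR, unadjusted p = 0.0250), beside 1.51% of all genes. Of 9 tested partners of ISG15, the deubiquitinase *Usp14* was higher in non-lesional skin (0.35, 0.11), with 5 of 5 libraries above every WT library, beside 1.85% of all genes higher by unadjusted p and 0.392% without overlap, and 0 of 9 met the measure in lesional skin. The value of *Usp14* in lesional against non-lesional skin was -0.27 over all libraries, where 1.33% of all genes were lower by unadjusted p, and it was -0.35 (edgeR, unadjusted p = 0.0427) without lesional replicate 11 and -0.42 (edgeR, unadjusted p = 0.0216) without replicates 2 and 11, beside 1.32% and 2.04% of all genes. The 7 tested genes of ubiquitin and other ubiquitin-like proteins gave 0 in each comparison.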

How the data were processed

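The authors made QuantSeq 3′ libraries, clipped adaptors with cutadapt 2.10, mapped reads with Subread to GRCm38 and spike-in sequences, kept primary matches of high mapping quality with SAMtools 1.7-2 and counted exon overlaps with featureCounts 2.0.1. Reads that overlapped more than 1 gene were assigned to each of these, and no strand setting was named. The deposited values used here are raw counts per gene, not normalised. The deposited CPM table was not used, the 92 spike-in rows held 0 counts and were left out, and PCR copies were not removed.

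The 3 pairs of groups were fitted separately with edgeR 4.0.16 in R 4.3.3 (TMM, filterByExpr, robust quasi-likelihood F-test), with Benjamini-Hochberg adjustment over all genes tested and a threshold of 0.05. Standard errors are the absolute log2 fold change over the square root of F. CPM per library use TMM-normalised sizes over 15 libraries, and nothing states that libraries of a group are separate litters, so p-values measure the spread between these samples. The study compared groups with DESeq2.

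Alternatives were DESeq2 1.42.0, limma 3.58.1 (voomWithQualityWeights), other normalisations and filters, 1 fit of all libraries, no robust estimation and leaving out each library. Fits without lesional replicates 2 and 11, and values of *Isg15*, the lists and the markers without replicate 11, were added after seeing the data. The fits were tested on simulated counts. Loci come from GENCODE vM21, promoters from RefSeq, and transcript ends were matched with blastn 2.17.0+.

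The members and lists were chosen with earlier results of these data known. The genes named are the members, up to 3 genes per list and comparison by unadjusted p (*Irf1*, *Zc3hav1*, *Parp4*, single markers and the genes at or near 0 counts being named beside them after their values were seen), the most abundant gene of a list with none, the 6 genes most like the members, and *Nedd8* and *Rps27a* for the range of counts. Some genes this rule would name are not reported here. Replicate pairs differed by more than sampling noise (chi-square per degree of freedom 3.51 to 43.0).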

Additional observations from a re-analysis of the deposited data

How the results depend on the processing

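No paired analysis was run, because the groups share no replicate number and no label pairs their libraries. The libraries are numbered 1 to 15 in turn over WT, lesional and non-lesional skin, and nothing read here says that neighbouring numbers share a mouse, litter or batch, although lesional replicates 11, 2, 14, 8 and 5, in falling order of the mean over the 9 genes, neighbour non-lesional replicates 12, 3, 15, 9 and 6 in theirs. A fit blocked on neighbouring numbers was not run, so if those libraries do belong together the p-values given here ignore that pairing. The log2 fold changes of the members against WT kept their sign in each of 132 non-lesional and 139 lesional alternative values, and between lesional and non-lesional skin 128 of 139 did. The count of members with an adjusted p under 0.05 stayed at 0 except for 1 (*Usp18*) in non-lesional skin without a filter, whereas a minimum of 10 counts in every library removed *Usp18* from the test. The count by unadjusted p against WT in non-lesional skin was 1 with all 15 libraries in 1 fit, where lesional libraries enter the variance, and 3 to 6 with 1 library left out, and the median was 0.46 to 0.61. In lesional skin against WT it was 4 with voomWithQualityWeights, 1 without lesional replicates 2 and 11 (median 0.36) and 3 to 7 with 1 library left out (median 0.61 to 1.32). The share of all genes higher in this way moved too. It was 3.24% over all libraries, 1.49% without lesional replicate 11 and 1.42% without replicates 2 and 11. Shares of the remaining settings are not given here, so their counts cannot be set against all genes. Between lesional and non-lesional skin the count of members was 0 with voomWithQualityWeights, with library totals only, without a filter and without lesional replicates 2 and 11 (beside 1.47% of all genes), and 0 to 2 with 1 library left out (median 0.04 to 0.80). There the median reversed to -0.23 without lesional replicates 2 and 11, with *Usp18* at -0.63, *Herc6* at -0.39, *Trim25* at -0.23, *Dtx3l* at -0.31 and *Parp9* at -0.23. Without lesional replicate 11 *Usp18*, *Herc6* and *Dtx3l* were at -0.064, -0.012 and -0.060 (up to 0.94, 0.69 and 0.62 with another library left out), and with voomWithQualityWeights, which gives outlying libraries less weight, at -0.0077, -0.10 and -0.016. The cause of these changes was not tested beyond the libraries left out. At these depths 3 counts equal 1.14 to 1.56 CPM, which limits *Isg15* and *Ube2l6*.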
